A study of Homo sapiens with 60 samples.

Results

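BAY2506856 at 100 nM was compared with its vehicle, DMSO, after 6 h in MDA-MB-231, a human cell line from a triple-negative breast cancer. The comparison takes the 3 libraries labelled 100 nM and 6 h and the 6 libraries labelled DMSO and 6 h, 9 of the 60 libraries of a series that also holds 300 and 1000 nM and times of 1, 3 and 24 h. All 9 come from the same line, and the groups differ in the labels only in the compound. Poly(A) RNA of whole cultures was sequenced, and the values are FPKM (fragments scaled by transcript length and sequencing depth), a level that can be compared between genes. The labels name no target of the compound. Nothing in them says that replicates were separate cultures, so a p-value here measures the spread between libraries, which may be technical.

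YAP1 and its paralog TAZ (gene WWTR1) are coactivators that carry no DNA-binding domain and act in the nucleus through TEAD transcription factors. The Hippo kinases LATS1 and LATS2 phosphorylate them and hold them in the cytoplasm, while tension on the actin cytoskeleton favours their entry into the nucleus. MDA-MB-231 cells have lost the Hippo component NF2 and are widely used as cells with active YAP1 and TAZ. Among the best known targets are CTGF and CYR61, which encode secreted matricellular proteins, ANKRD1, which encodes an ankyrin repeat protein, and AMOTL2, an angiomotin that binds YAP1 in turn.

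TEAD factors bind the letters GGAATG or their reverse complement. The 3 stretches that follow are the 250 bases before the RefSeq start of CTGF (RefSeq symbol CCN2), ANKRD1 and DKK1. They are shown because these genes are among the 5 with the largest falls at 100 nM and hold the letters before the only start that the RefSeq table gives them. Each is written 5′ to 3′ on the strand of its gene, with matches in capitals.
CTGF: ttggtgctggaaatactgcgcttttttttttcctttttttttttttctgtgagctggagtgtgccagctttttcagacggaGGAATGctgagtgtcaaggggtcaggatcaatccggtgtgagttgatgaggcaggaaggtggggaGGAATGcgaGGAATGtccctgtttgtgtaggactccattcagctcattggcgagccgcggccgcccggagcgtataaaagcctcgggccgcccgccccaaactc
ANKRD1: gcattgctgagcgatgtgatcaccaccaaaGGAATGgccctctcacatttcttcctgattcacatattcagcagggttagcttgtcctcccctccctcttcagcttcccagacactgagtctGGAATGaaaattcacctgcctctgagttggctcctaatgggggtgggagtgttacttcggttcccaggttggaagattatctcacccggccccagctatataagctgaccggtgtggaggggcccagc
DKK1: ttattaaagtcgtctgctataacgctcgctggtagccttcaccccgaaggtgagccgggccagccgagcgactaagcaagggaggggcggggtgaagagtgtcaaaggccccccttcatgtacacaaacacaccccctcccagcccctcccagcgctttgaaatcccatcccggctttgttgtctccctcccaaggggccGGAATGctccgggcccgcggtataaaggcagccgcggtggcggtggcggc
They lie at chr6:131951373-131951622 on the minus strand, chr10:90921088-90921337 on the minus strand and chr10:52314031-52314280 on the plus strand of GRCh38.p14, directly upstream of the first exon. The matches begin 169, 104 and 95 bases before the start of CTGF, 220 and 128 bases before that of ANKRD1 and 50 bases before that of DKK1. EDN1, another of the 5, has 3 starts, and the window of 1 of them holds 1 match. No RefSeq window was found for CYR61, the largest fall, so its letters were not examined. For AMOTL2 the window of 1 start holds 1 match, 69 bases before it, and that of another start holds none. The windows of the falling CD274, FST and HBEGF and of the rising RHOB, BMF and TSC22D3 held none. Of 35116 promoter windows of this length 11.9% hold the letters on either strand. Windows were matched for 79 of the 104 genes that fell, and 20 of these 79 (25.3%) held the letters. Of the genes that rose 28 were matched, and 2 of them (7.14%) held the letters. Over all tested genes the share was 13.1% of 9357 matched. Other letters were counted in the same windows. AP-1 letters (TGANTCA) were in 15.2% of matched genes that fell, 10.7% that rose and 5.85% of all tested. FOXO letters (GTAAACA) were in 6.33%, 14.3% and 3.01% in the same order. E-box letters (CACGTG) were in 13.9%, 10.7% and 11.3%. The excess among falling genes is thus not particular to the TEAD letters. The differences between these shares were not tested, and genes without a window are not covered. A match is a run of letters and not a measured site.

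The recovered depth was 9.31 to 48.8 Mreads (megareads) in the treated and 4.80 to 24.0 Mreads in the DMSO libraries. DMSO replicate 5, with the fewest reads, stood apart. An index of 11 pseudogenes (mean log2 level of 6 less that of 5) was 2.48 in it and at most -1.76 in the libraries of the first type, to which the other 8 belong. Such libraries are of the second of 3 types that the labels do not describe, found in the values over all 60 libraries (41, 13 and 6 libraries). Results are therefore also given within the first type. The line's markers were present in all 9 libraries except SPARC, which stayed under 0.37 FPKM. VIM, for example, ranged from 431 to 642 FPKM. The luminal ESR1, the fibroblast markers DCN and THY1 and the T cell markers CD3D and CD3E were at 0 in all 9. Other members were expressed. Of 21 luminal markers only 8 stayed under 1 FPKM in all 9, and KRT8 was at 108 to 119.8 FPKM treated and 92.4 to 143.5 FPKM in DMSO. Of 10 fibroblast, 7 endothelial and 8 leukocyte markers measured, 7, 6 and 6 stayed under 1 FPKM. The endothelial exception was ESAM, at 18.95 to 20.3 FPKM treated and 11.9 to 22.3 FPKM in DMSO. The summed level of the 10 fibroblast markers did not overlap, at 5.98 to 6.42 FPKM treated and 3.41 to 5.54 FPKM in DMSO. The change was above 0 in all 4 tested members (median 0.27), none of which passed (0 at an unadjusted p under 0.05 in limma, 0 in voom, and 1 with array weights). PDGFRB was at 0.976 to 1.16 FPKM treated and 0.428 to 0.867 FPKM in DMSO. The part of this in the results was not tested. Sums of the 21 luminal markers were 439.8 to 483 FPKM treated and 357 to 565 FPKM in DMSO, and those of the leukocyte markers were at most 4.36 FPKM.

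Of 15866 genes tested, 137 changed (0.863%), 104 lower (0.655%) and 33 higher (0.208%), at an adjusted p under 0.05 from limma over all tested genes. Changes are on the scale tested, log2(FPKM + 0.5), which understates folds of low genes. On it the change reached 2-fold in 6 genes, the falling CYR61, CTGF, ANKRD1, EDN1 and DKK1 and the rising RHOB. In plain FPKM other genes also reach it, such as BMF (mean 2.12 FPKM treated, 0.817 FPKM in DMSO) and CD274 (4.09 and 8.46 FPKM). The median log2 change was -0.47 among the genes that fell, 0.48 among those that rose and 0.01 over all genes tested. Treated and DMSO libraries did not overlap for 134 of the 137. NOG, URB2 and STOX1 are the exceptions. All treated libraries lay below all DMSO libraries for 544 tested genes (3.43%) and above them for 430 (2.71%). Within the first library type 535 genes passed (3.37%), 177 higher (1.12%) and 358 lower (2.26%), 135 of the 137 among them. With terms for library type in the fit 345 passed (2.17%), all 137 among them. The count was 75, 65 and 80 without treated replicate 1, 2 and 3. In RNA of whole cultures, fewer cells of a kind and less RNA per cell cannot be told apart.

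**Figure D1:**
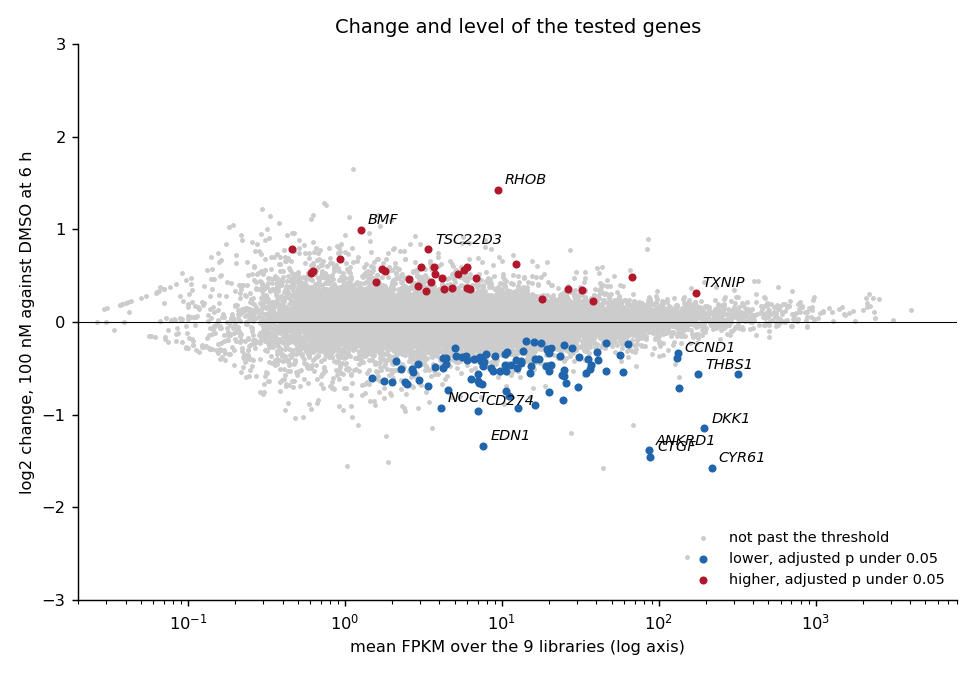
Mean FPKM over the 9 libraries (log axis) against the log2 change of each of the 15866 tested genes, with 104 lower genes in blue and 33 higher genes in red. CYR61, CTGF, ANKRD1, EDN1 and DKK1 lie lowest among the genes past the threshold, and RHOB and BMF highest.

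Of 30 YAP1 and TAZ targets tested, 16 were lower and 0 higher, with a list median of -0.38, against a median of 0.01 and 0.655% lower over all genes. The log2 change was below 0 in 29 of the 30, and the treated libraries lay wholly below DMSO for 18. Within the first library type 19 of the 30 were lower. Without treated replicate 2 the count was 10. The list, like the others below, was drawn up with earlier results of these data known. The counts of every list below are to be read against the shares over all genes. These are 0.655% lower and 0.208% higher, and 2.26% and 1.12% within the first library type.

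CYR61 had the largest fall of all called genes on the scale tested. Its treated libraries measured 99.35, 91.5 and 89.0 FPKM, and the DMSO libraries ranged from 261 to 315 FPKM with a median of 269. The groups lay far apart and each was narrow, at 93.3 ± 5.40 FPKM (SD, n = 3) against 279 ± 21.6 FPKM (SD, n = 6). The log2 change was -1.57 ± 0.07 (SE), with an adjusted p of 3.67e-22. CTGF measured 41.4, 41.7 and 38.2 FPKM treated against 103 to 134 FPKM (median 108) in DMSO, where replicate 1 was the highest. It fell by 1.45 ± 0.07 on the log2 scale (adjusted p = 3.67e-22). ANKRD1 measured 41.7, 42.1 and 39.7 FPKM treated against 89.0 to 141 FPKM (median 106) in DMSO. Its highest value was that of DMSO replicate 5, and it fell by 1.38 ± 0.11 (adjusted p = 1.65e-12), and by 1.31 within the first library type. AMOTL2 was at 10.98, 9.86 and 9.47 FPKM treated against 15.4 to 25.9 FPKM (median 18.7) in DMSO. Here replicate 5 was the lowest DMSO library, and the fall was 0.90 ± 0.18 (adjusted p = 0.00212).

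EDN1, TGFB2, F3 and THBS1, whose products are secreted or sit at the cell surface, are among the 16. EDN1, which encodes the vasoconstrictor peptide endothelin-1, measured 3.89, 3.54 and 3.06 FPKM treated against 8.14 to 11.5 FPKM in DMSO (log2 change -1.33 ± 0.12, adjusted p = 3.59e-11). TGFB2, a transforming growth factor, measured 14.0, 13.2 and 13.3 FPKM against 20.7 to 28.6 FPKM (-0.75 ± 0.10, adjusted p = 1.42e-06). F3, the tissue factor that starts coagulation, measured 96.4, 89.9 and 95.9 FPKM against 145 to 179 FPKM (-0.71 ± 0.07, adjusted p = 2.46e-10). In all 3 genes every treated library was below every DMSO library. THBS1, a matricellular protein, was among the most abundant targets. It measured 137, 136 and 134 FPKM against 192 to 205 FPKM and fell by 0.56 ± 0.06 (adjusted p = 3.24e-08).

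The fall was 0.57 or less on the log2 scale in 7 further targets. ASAP1, which encodes an Arf GTPase-activating protein, fell by 0.47 ± 0.09 (adjusted p = 0.00157). AJUBA, a LIM protein that binds LATS kinases, fell by 0.57 ± 0.12 (adjusted p = 0.00455), and missed the threshold without treated replicate 2 (adjusted p = 0.104). GADD45A, a stress-inducible growth arrest gene, and CRIM1, a membrane protein that binds BMPs, fell by 0.55 ± 0.12 and 0.32 ± 0.07 (adjusted p = 0.011 and 0.00716). Both missed it without treated replicate 2 or 3, with adjusted p values up to 0.118. IGFBP3, which binds insulin-like growth factors, fell by 0.29 ± 0.07 (adjusted p = 0.0292) and missed it without treated replicate 1, 2 or 3 or DMSO replicate 1 or 5 (adjusted p up to 0.342). The remaining pair, WWC1 and LATS2, belongs to the Hippo pathway and is described with it. Among targets that did not pass, AXL, a receptor tyrosine kinase, was the most abundant, at 186 to 195 FPKM treated and 165 to 226 FPKM in DMSO (-0.08 ± 0.09, adjusted p = 1).

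**Figure D2:**
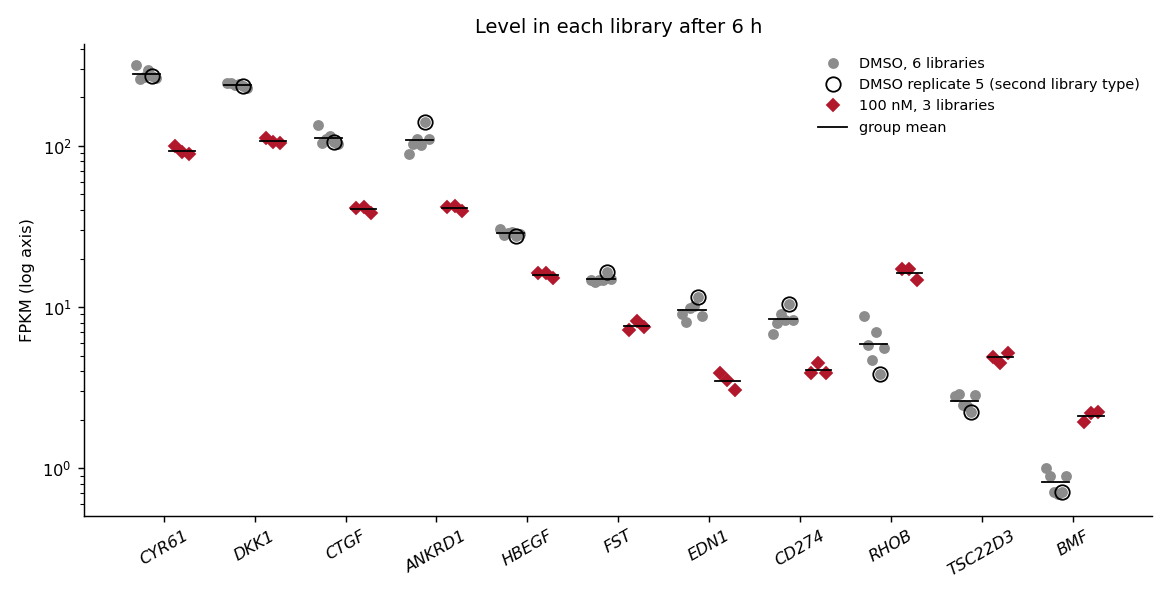
FPKM (log axis) of 11 genes in each of the 6 DMSO libraries (grey) and 3 libraries at 100 nM (red), with group means as lines and DMSO replicate 5 circled. The groups do not overlap for any gene shown: CYR61 is at 89.0 to 99.35 FPKM treated and at 261 FPKM or more in DMSO, and RHOB at 14.7 FPKM or more treated and at 8.77 FPKM or less in DMSO.

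Among 25 tested genes of the Hippo pathway itself, 4 were lower and 0 higher, and the list median was -0.07 (6 lower within the first library type). Those 4 encode negative regulators of YAP1 and TAZ, which are also known as their targets in part. FRMD6, a FERM protein upstream of the kinases, measured 18.2, 18.7 and 17.9 FPKM treated against 26.8 to 33.0 FPKM in DMSO (-0.65 ± 0.10, adjusted p = 1.9e-05). AMOTL2 is given above. WWC1, the scaffold KIBRA, measured 6.06, 5.95 and 6.03 FPKM against 7.51 to 9.82 FPKM (-0.41 ± 0.09, adjusted p = 0.00993), and missed the threshold without any single treated library (up to 0.104). LATS2 measured 5.06, 4.97 and 4.47 FPKM against 5.33 to 8.14 FPKM (-0.36 ± 0.10, adjusted p = 0.0481). Leaving out any 1 of 8 libraries, all but DMSO replicate 4, ended its call (adjusted p up to 0.479). YAP1 did not pass, at 36.2, 32.6 and 35.8 FPKM treated and 32.6 to 38.75 FPKM in DMSO, a log2 change of 0.00 ± 0.09. WWTR1 and TEAD1, chosen after their values were seen, did not pass either. WWTR1 was at 12.4 to 13.9 FPKM treated and 10.6 to 14.5 FPKM in DMSO, and TEAD1 at 20.1 to 22.8 and 19.85 to 24.4 FPKM.

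RHOB, a short-lived small GTPase of endosomes, had the largest rise of all called genes on the scale tested. It measured 17.1, 17.2 and 14.7 FPKM treated against 8.77, 5.84, 4.67, 6.98, 3.87 and 5.54 FPKM in DMSO replicates 1 to 6. The treated libraries all lay above DMSO, whose own values spread more than 2-fold. The mean was 16.35 ± 1.41 FPKM (SD, n = 3) against 5.94 ± 1.74 FPKM (SD, n = 6), a log2 change of 1.43 ± 0.18 (adjusted p = 4.81e-07). RHOA, its abundant relative that drives actin contraction, did not pass, at 320 to 326 FPKM treated and 270 to 307 FPKM in DMSO (0.16 ± 0.05, adjusted p = 0.111).

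Among regulators of RHOA 3 fell, and they act on it in different ways. DLC1, a GTPase-activating protein that switches RHOA off, measured 5.195, 4.96 and 4.93 FPKM treated against 7.94 to 9.10 FPKM in DMSO (-0.65 ± 0.07, adjusted p = 4.99e-10). RND3, an atypical small GTPase that opposes RHOA signalling, measured 18.1, 18.1 and 18.5 FPKM against 20.9 to 37.5 FPKM (-0.58 ± 0.14, adjusted p = 0.0179). Its call ended without any 1 treated library or DMSO replicate 5 (adjusted p up to 0.138). ARHGEF28, an exchange factor that switches RHOA on, measured 3.47, 3.46 and 3.32 FPKM against 4.34 to 5.69 FPKM (-0.45 ± 0.09, adjusted p = 0.00235). Of 30 tested SRF/MRTF and actin genes, which respond to the pool of free actin, 1 was lower and 0 higher (median -0.06). Within the first library type 6 were lower, with library type terms 5 and with array weights 7. Over all 15866 genes these settings called 535, 345 and 1178 genes, against 137 in the main fit. The gene called in the main fit is PDLIM5, a LIM protein of the Z-disc and of stress fibres, at -0.33 ± 0.08 (adjusted p = 0.0323). It missed the threshold without any 1 treated library or DMSO replicate 3, 5 or 6 (adjusted p up to 0.227).

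Secreted ligands and their antagonists were lower in 8 of 38 tested genes and higher in 0, with a median of -0.27. Within the first library type 13 were lower. Over all genes 0.655% were lower, and 2.26% within the first type. DKK1, an inhibitor of WNT receptors, was among the most abundant. It measured 112, 106 and 104.5 FPKM treated against 227.5 to 245 FPKM in DMSO, with little spread in either group, and fell by 1.15 ± 0.07 (adjusted p = 2.71e-18). FST, which binds and blocks activins, measured 7.17, 8.25 and 7.54 FPKM against 14.4 to 16.55 FPKM (-0.93 ± 0.08, adjusted p = 3.59e-11). HBEGF, a ligand of the EGF receptor, measured 16.2, 16.35 and 15.05 FPKM against 27.6 to 30.6 FPKM (-0.84 ± 0.07, adjusted p = 3.57e-12). BDNF, a neurotrophin, measured 3.19, 2.67 and 3.10 FPKM against 4.73 to 5.74 FPKM (-0.73 ± 0.07, adjusted p = 8.1e-10). For these 4 genes no treated library reached the lowest DMSO library.

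The call was less firm for the other ligands outside the target list. FGF5, a fibroblast growth factor, measured 1.73, 1.47 and 1.64 FPKM against 2.58 to 3.53 FPKM (-0.64 ± 0.16, adjusted p = 0.0338). It missed the threshold without any 1 treated library or DMSO replicate 3, 5 or 6 (adjusted p up to 0.342). NOG, the BMP antagonist noggin, measured 7.93, 5.96 and 6.02 FPKM treated and 23.9, 11.25, 6.60, 17.0, 9.59 and 7.11 FPKM in DMSO replicates 1 to 6. DMSO replicates 1 and 4 were high and the groups overlapped. Its change of -0.74 ± 0.19 (adjusted p = 0.0394) did not pass within the first library type (adjusted p = 0.07005) or without any 1 treated library or DMSO replicate 1, 2 or 4 (up to 0.375). PTX3, a secreted pentraxin outside the lists, measured 20.7, 20.5 and 22.7 FPKM against 30.7 to 39.8 FPKM (-0.70 ± 0.11, adjusted p = 2.19e-05).

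Surface receptors and checkpoint ligands were lower in 3 of 34 tested genes and higher in 0, with a median of -0.05. In libraries of the first type 10 were lower and 1 higher, with library type terms 8 lower, and with array weights 12 lower and 5 higher. Over all 15866 genes these settings called 535 (3.37%), 345 (2.17%) and 1178 genes in the same order, against 137 (0.863%) in the main fit. CD274, which encodes the T cell inhibitory ligand PD-L1, measured 3.88, 4.50 and 3.89 FPKM treated against 6.76 to 10.52 FPKM (median 8.28) in DMSO. Its treated values were all lower, and the fall was 0.96 ± 0.11 on the log2 scale (adjusted p = 5.79e-08). OXTR, the oxytocin receptor, measured 2.25, 2.05 and 2.42 FPKM against 3.25 to 5.03 FPKM (-0.69 ± 0.13, adjusted p = 0.0008). F3 is the other member. Proteases, matrix genes and their inhibitors were lower in 3 of 28 tested genes and higher in 0, among them THBS1 above and the protease ADAMTS6, which fell by 0.60 ± 0.13 (adjusted p = 0.00466, and 0.104 without treated replicate 2). The median of that list was 0.03, and -0.02 within the first library type.

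Of 43 tested genes for ribosome production, 5 were lower and 0 higher, with a median of -0.25. The change was below 0 in 41, and the treated libraries lay wholly below DMSO for 23. Over all tested genes 0.655% were lower, 47.93% had a change below 0 and 3.43% lay wholly below DMSO. The count of 5 depended on single libraries, at 1, 1 and 2 without treated replicate 1, 2 and 3. It was 20 within the first library type, where the median was -0.24. NOP2, an rRNA methyltransferase, measured 10.9, 10.2 and 10.48 FPKM treated against 13.6 to 15.9 FPKM in DMSO (-0.44 ± 0.09, adjusted p = 0.00237). NOLC1, a nucleolar scaffold, and NOP16, a protein of large subunit assembly, fell by 0.36 ± 0.08 and 0.40 ± 0.10 (adjusted p = 0.0136 and 0.0219). The call of NOLC1 ended without treated replicate 1 or 2 or DMSO replicate 5, and that of NOP16 without any 1 treated library or DMSO replicate 1 (adjusted p up to 0.212 and 0.227).

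WDR43, a small subunit assembly factor, fell by 0.53 ± 0.14 (adjusted p = 0.0461) and RRP1B, an rRNA processing factor, by 0.21 ± 0.05 (adjusted p = 0.03205). WDR43 missed the threshold without any 1 treated library or DMSO replicate 3, 5 or 6 (up to 0.351). RRP1B missed it without any 1 treated library or DMSO replicate 1, 4, 5 or 6 (up to 0.343). CD3EAP, a subunit of RNA polymerase I outside that list, was among the 15 largest falls of all. It measured 7.41, 7.19 and 7.23 FPKM treated against 11.7 to 14.2 FPKM in DMSO (-0.80 ± 0.10, adjusted p = 6.94e-07). NPM1, the most abundant listed gene that did not pass, was at 276 to 282 FPKM treated and 260.0 to 408 FPKM in DMSO.

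MYC, a transcription factor that drives ribosome production, measured 27.7, 25.3 and 25.2 FPKM treated against 34.2 to 47.0 FPKM in DMSO. All treated values were lower, and the log2 change was -0.55 ± 0.10 (adjusted p = 0.000745). It is the only 1 of 10 tested genes of its network to pass (2 within the first library type). CCND1, cyclin D1 of the G1 phase, measured 112, 104 and 109 FPKM against 129 to 158 FPKM (-0.38 ± 0.05, adjusted p = 1.63e-06), as the only 1 of 23 ERK feedback and target genes, of which 4 were lower and 2 higher within the first library type. The cell cycle lists held no called gene. None of 46 S phase genes and none of 42 mitotic genes passed in limma, with medians of -0.01 and 0.01. At an unadjusted p under 0.05 there were 3 and 2, and voom on recovered reads called 1 and 0. On libraries of the first type limma called 2 S phase genes lower and 1 mitotic gene in each direction, and with library type terms 2 S phase genes lower and 1 mitotic gene higher. PCNA, the replication clamp, was at 208 to 215 FPKM treated and 190 to 227 FPKM in DMSO, and CKS2, a CDK-binding protein, at 219 to 233.5 and 194 to 228 FPKM.

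Growth restraint genes, many of them known targets of FOXO factors, moved the other way in part. Of 40 tested, 5 rose and 0 fell, the median was 0.22 and 34 changes lay above 0, against 0.208% higher over all genes. Within the first library type 11 were higher. TSC22D3, the glucocorticoid-induced leucine zipper GILZ, measured 4.92, 4.51 and 5.19 FPKM treated against 2.22 to 2.90 FPKM in DMSO (0.79 ± 0.12, adjusted p = 1.18e-05). FAM46C, a poly(A) polymerase, measured 7.35, 7.89 and 8.495 FPKM against 4.32 to 5.54 FPKM (0.60 ± 0.09, adjusted p = 2.37e-05). TXNIP, which inhibits thioredoxin and glucose uptake, measured 190, 201 and 201 FPKM against 141 to 174 FPKM (0.32 ± 0.05, adjusted p = 1.88e-05). TSC22D1 measured 36.5, 38.7 and 37.4 FPKM against 27.9 to 30.1 FPKM (0.34 ± 0.04, adjusted p = 6.94e-07). None of the treated libraries of these genes overlapped DMSO. CCNG2, an unconventional cyclin, measured 4.97, 4.71 and 5.06 FPKM against 2.58 to 3.64 FPKM (0.60 ± 0.13, adjusted p = 0.00809), and missed the threshold without treated replicate 1 or 3 (adjusted p up to 0.079). CDKN1A, the CDK inhibitor p21, did not pass, at 50.4 to 52.6 FPKM treated and 22.4 to 42.96 FPKM in DMSO (0.58 ± 0.22, adjusted p = 0.481).

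BCL2 family genes, which set the threshold for apoptosis, moved in both directions. Among 16 tested, 2 rose and 1 fell, and the median was 0.105. BMF, a BH3-only protein that promotes apoptosis, measured 1.93, 2.21 and 2.23 FPKM treated against 0.692 to 1.00 FPKM in DMSO (1.00 ± 0.13, adjusted p = 9.46e-07). BCL2L11, the BH3-only protein BIM, measured 5.36, 5.05 and 4.83 FPKM against 3.77 to 4.03 FPKM (0.35 ± 0.08, adjusted p = 0.0118). MCL1, which protects from apoptosis, measured 56.1, 54.4 and 59.9 FPKM against 64.6 to 70.55 FPKM (-0.24 ± 0.06, adjusted p = 0.0156). The groups did not overlap in any of the 3. BCL2L11 and MCL1 missed the threshold without treated replicate 1 or 2 (adjusted p up to 0.163 and 0.28). BCL2L1, the most abundant member, was at 140.2 to 144.5 FPKM treated and 120 to 198 FPKM in DMSO.

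**Figure D3:**
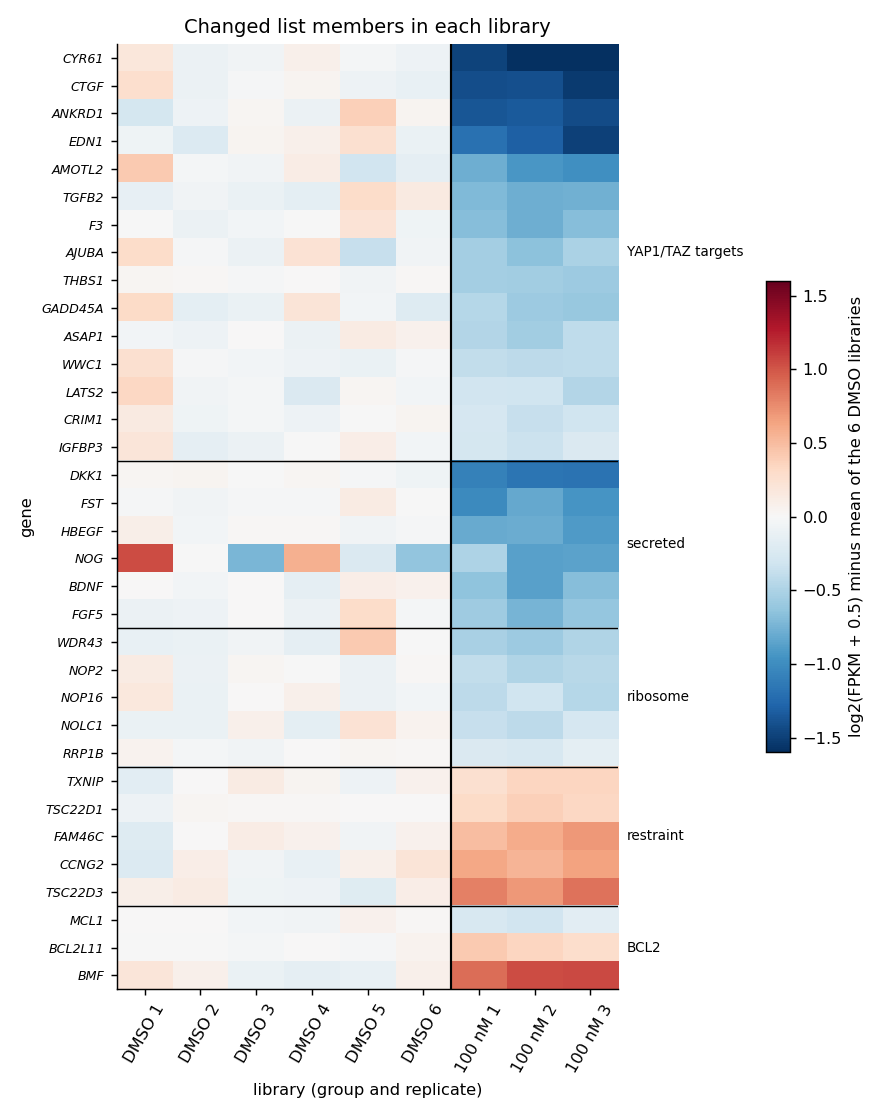
Log2(FPKM + 0.5) of 34 changed members of 5 gene lists in each of the 9 libraries, minus the mean of the 6 DMSO libraries (colour scale; blue is lower and red higher). Treated libraries differ from the DMSO mean in 1 direction for each gene, while NOG also varies among DMSO libraries and in DMSO replicate 1 is 1.04 above the mean. The lowest value, -1.64 for CYR61, takes the end colour.

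KLF factors, zinc finger proteins several of which respond to flow and to mevalonate pathway inhibition, gave 1 higher and 0 lower of 12 tested, with a median of 0.20. In libraries of the first type 3 were higher and 1 lower. KLF6 measured 42.4, 42.4 and 41.2 FPKM treated against 33.9 to 37.0 FPKM in DMSO (0.23 ± 0.06, adjusted p = 0.0323). It missed the threshold without any 1 treated library or DMSO replicate 1, 3, 5 or 6 (adjusted p up to 0.251). KLF2 was at 7.29, 5.65 and 5.48 FPKM treated and at 14.96, 3.75, 1.93, 6.14, 1.92 and 2.17 FPKM in DMSO replicates 1 to 6. DMSO replicate 1 was higher than every treated library, and the change of 0.60 ± 0.34 did not pass (adjusted p = 1). KLF10 did not pass either (0.16 ± 0.08, adjusted p = 1).

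DMSO replicates 1 and 4 were also the highest DMSO libraries for some immediate early genes, a class that responds within minutes to serum or handling. JUNB was at 24.1 and 13.75 FPKM in them, at 3.85 to 9.30 FPKM in the other DMSO libraries and at 6.71 to 9.74 FPKM treated. JUN was at 59.8 and 47.3 FPKM, 24.4 to 30.95 FPKM and 26.0 to 30.9 FPKM in the same order. IER2 and DUSP1 had the same order, while FOS, EGR1 and ATF3 did not. For EGR1 replicate 3 (2.10 FPKM) was above replicate 4 (1.84 FPKM), and for ATF3 replicate 3 (1.457 FPKM) was above replicate 1 (1.444 FPKM). These genes were chosen after their values were seen. Of 20 tested immediate early and AP-1 genes 1 was lower, MCL1, and 0 higher (4 lower within the first library type). Their median was -0.13, and it was 0.14 without DMSO replicate 1 and 0.01 without replicate 4. RHOB and KLF2 were also highest, among DMSO libraries, in replicates 1 and 4, as were the falling CYR61, CTGF and HBEGF. CYR61 was at 315 and 295 FPKM in them and at 261 to 272 FPKM in the other DMSO libraries. ANKRD1, EDN1 and DKK1 did not have this order. The part of this order in the changes of these genes was not tested. RHOB rose in every fit that left out 1 of the 9 libraries (adjusted p up to 4.16e-05).

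Several lists held no called gene or single ones. None passed among 27 mevalonate and cholesterol genes (median 0.08) or 12 protein prenylation enzymes (0.02), which attach and process lipid anchors of small GTPases. ICMT, which methylates prenylated proteins, was at 50.4 to 52.6 FPKM treated and 47.5 to 52.8 FPKM in DMSO. None passed among 28 interferon-stimulated genes (0.09), 26 genes of the unfolded protein and ATF4 response (0.01), 20 NF-kB targets (-0.12), 24 enzymes of one-carbon, purine and polyamine metabolism (-0.06), 13 mitochondrially encoded messages (0.13) and 16 housekeeping messages (0.03). In the order named, limma gave 2, 0, 2, 2, 4, 3, 0 and 0 of these genes an unadjusted p under 0.05, and voom called 0, 0, 0, 0, 2, 1, 0 and 0. The first library type alone gave 1, 0, 1, 1, 3, 1, 0 and 0. Glycolysis and hypoxia genes gave a pair in opposite directions of 25 tested, and 3 higher and 1 lower within the first library type. The hexokinase HK2 fell by 0.35 ± 0.07 (adjusted p = 0.00114), and the glucose transporter SLC2A3 was higher by 0.37 ± 0.07 (adjusted p = 0.0026, and 0.138 without treated replicate 2). CYP1B1, a cytochrome induced through the aryl hydrocarbon receptor, was the only 1 of 24 NRF2 and aryl hydrocarbon receptor targets to pass, against 3 higher within the first library type. It measured 87.7, 77.4 and 86.5 FPKM treated against 53.5 to 70.1 FPKM (0.48 ± 0.10, adjusted p = 0.00304), and 0.0555 without treated replicate 1.

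In the TGF-beta, BMP and WNT list DKK1 was lower and TGIF1, a corepressor of SMADs, higher by 0.36 ± 0.09 (adjusted p = 0.0245) of 22 tested. TGIF1 missed the threshold without any 1 treated library or DMSO replicate 5 (up to 0.242). In the p53 list GADD45A was lower and TP53INP1, a stress-induced autophagy protein, higher by 0.55 ± 0.12 (adjusted p = 0.0109) of 19 tested. TP53INP1 missed it without treated replicate 1 or 2 (up to 0.117). ELF3, an epithelial ETS factor, was the only 1 of 16 tested luminal markers to pass. It was at 0.833, 0.747 and 0.866 FPKM treated against 0.217 to 0.312 FPKM (0.79 ± 0.15, adjusted p = 0.00138). Its levels were under 1 FPKM in all 9 libraries, so it was tested only because libraries of other groups reached 1 FPKM.

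**Figure D4:**
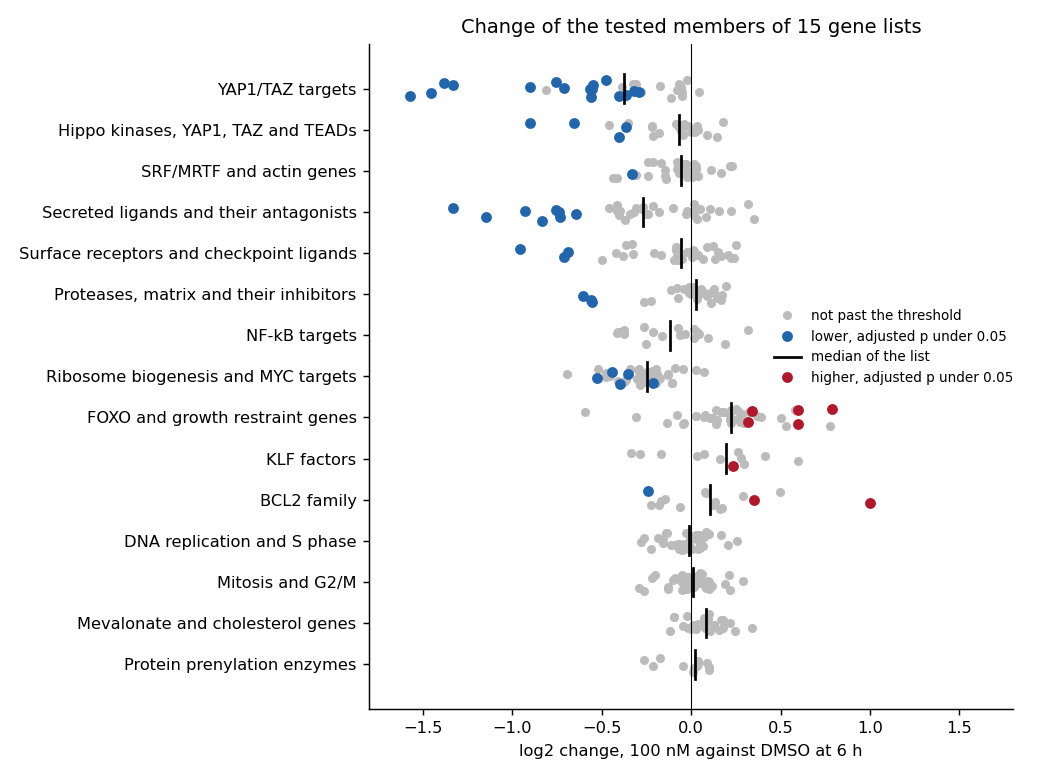
Log2 change at 100 nM against DMSO of each tested member of 15 gene lists, with genes past the threshold in blue (lower) or red (higher) and the list median as a bar. The median is -0.38 for YAP1/TAZ targets, -0.27 for secreted ligands, -0.25 for ribosome biogenesis and 0.22 for growth restraint genes, and lies between -0.13 and 0.20 for the other lists shown.

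Further genes of the 15 largest changes in each direction lie outside the lists. NOCT, which encodes the circadian protein nocturnin, measured 2.83, 2.19 and 2.00 FPKM treated against 3.87 to 6.54 FPKM in DMSO (-0.92 ± 0.15, adjusted p = 6.87e-05). LIPG, endothelial lipase, measured 4.16, 3.98 and 3.97 FPKM against 2.32 to 2.59 FPKM (0.59 ± 0.07, adjusted p = 4.15e-07). The kinases PIK3C2B and PIM1 were higher by 0.68 ± 0.14 and 0.63 ± 0.14 (adjusted p = 0.00455 and 0.00724), and missed the threshold without treated replicate 2 (0.105 and 0.138). RCSD1, a regulator of actin capping protein, was higher by 0.52 ± 0.11 (adjusted p = 0.00442, and 0.0536 without treated replicate 3). ANGPTL2, a secreted angiopoietin-like protein, was higher by 0.56 ± 0.13 (adjusted p = 0.0131) and missed it without any 1 treated library (up to 0.118). METTL7A, PNRC1 and the chemerin receptor CMKLR1 were higher by 0.58, 0.52 and 0.55 (adjusted p = 0.0213, 0.0394 and 0.0379). Their calls ended without any 1 of 3, 7 and 8 libraries (up to 0.63, 0.318 and 0.428). For METTL7A these were treated replicates 1 and 2 and DMSO replicate 5. For PNRC1 they were all but DMSO replicates 1 and 4, and for CMKLR1 all but DMSO replicate 2.

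The dose was then raised at the same time. Of 15866 genes, 3 differed between 300 and 100 nM and the same 3 between 1000 and 100 nM (0.0189% in both), all lower at the higher dose. CYR61 fell to 63.0 ± 3.88 FPKM (SD, n = 3) at 300 nM and 56.8 ± 1.89 FPKM at 1000 nM, from 93.3 FPKM at 100 nM. The differences from 100 nM were -0.56 ± 0.08 and -0.71 ± 0.08 (adjusted p = 0.000356 and 6.92e-07). CTGF, at 29.6 ± 1.85 and 25.8 ± 1.19 FPKM, differed by -0.45 ± 0.08 and -0.64 ± 0.08 (adjusted p = 0.00451 and 6.92e-07). DKK1, at 79.9 ± 6.48 and 73.05 ± 5.37 FPKM, differed by -0.43 ± 0.08 and -0.56 ± 0.08 (adjusted p = 0.00506 and 1.42e-05). At 300 nM the calls of CTGF and DKK1 both ended without treated replicate 1 or 2 at 100 nM or replicate 2 at 300 nM, and that of DKK1 also without replicate 1 at 300 nM. All 3 held at 1000 nM without each library in turn. Fitted on the libraries compared alone, 0 genes passed in either comparison, with 374 and 873 at an unadjusted p under 0.05 in limma, against 195 and 115 over all libraries, where voom also called 3 in each.

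RHOB was at 19.7 ± 5.12 FPKM at 300 nM and 27.1 ± 2.53 FPKM at 1000 nM (SD, n = 3 each). Its difference from 100 nM at 1000 nM was 0.71 ± 0.21 and did not pass (adjusted p = 1), but passed within the first library type. ANKRD1 did not pass at 1000 nM either (-0.57 ± 0.13, adjusted p = 0.295), and passed within the first type. For BMF the difference was 0.25 ± 0.15 and for CD274 -0.19 ± 0.13 (adjusted p = 1 for both). Against the same DMSO libraries, the log2 change at 100, 300 and 1000 nM was -1.57, -2.14 and -2.28 for CYR61, -0.96, -1.15 and -1.15 for CD274, 1.43, 1.65 and 2.14 for RHOB and 1.00, 1.00 and 1.25 for BMF. The number of genes past the threshold against DMSO was 137 (0.863%), 265 (1.67%) and 319 (2.01%). All doses share the DMSO libraries.

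The change at 6 h was set against that at 3 h, each with its own DMSO libraries, of which only 2 of 6 at 3 h are of the first type. At 3 h 11 genes passed (0.0693%), and 9 genes differed between times (0.0567%), 8 of them lower at 6 h (0.0504%) and 1 higher (0.0063%). DKK1 had the largest such difference. Its change was -0.29 at 3 h, where the treated libraries were at 183 ± 3.69 FPKM (SD, n = 3) and DMSO at 224 ± 18.0 FPKM (SD, n = 6), and -1.15 at 6 h. The difference was -0.86 ± 0.09 (adjusted p = 7.73e-08). CTGF went from -0.62 to -1.45 (difference -0.83 ± 0.09, adjusted p = 1.37e-07), CYR61 from -0.92 to -1.57 (-0.66 ± 0.10, adjusted p = 0.000348) and FST from -0.22 to -0.93 (-0.71 ± 0.12, adjusted p = 0.00124). These 4 held without each of the 18 libraries in turn.

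THBS1 went from -0.09 at 3 h to -0.56 at 6 h (difference -0.47 ± 0.09, adjusted p = 0.0135). LIPG went from 0.03 to 0.59 (0.56 ± 0.11, adjusted p = 0.00983). ANKRD1 and SH3RF1, a ubiquitin ligase, differed by -0.76 ± 0.16 and -0.47 ± 0.10 (adjusted p = 0.0441 and 0.0469). Of 18 libraries left out in turn, 15 ended the call for ANKRD1, 16 for SH3RF1, 5 for THBS1 and 2 for LIPG (adjusted p up to 0.238, 0.238, 0.147 and 0.155). Within the first library type 53 genes differed, all 9 among them. RHOB differed by 0.74 ± 0.26 and BMF by 0.63 ± 0.19, and neither passed (adjusted p = 1 and 0.595). At 24 h 3122 genes differed from DMSO (19.7%).

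**Figure D5:**
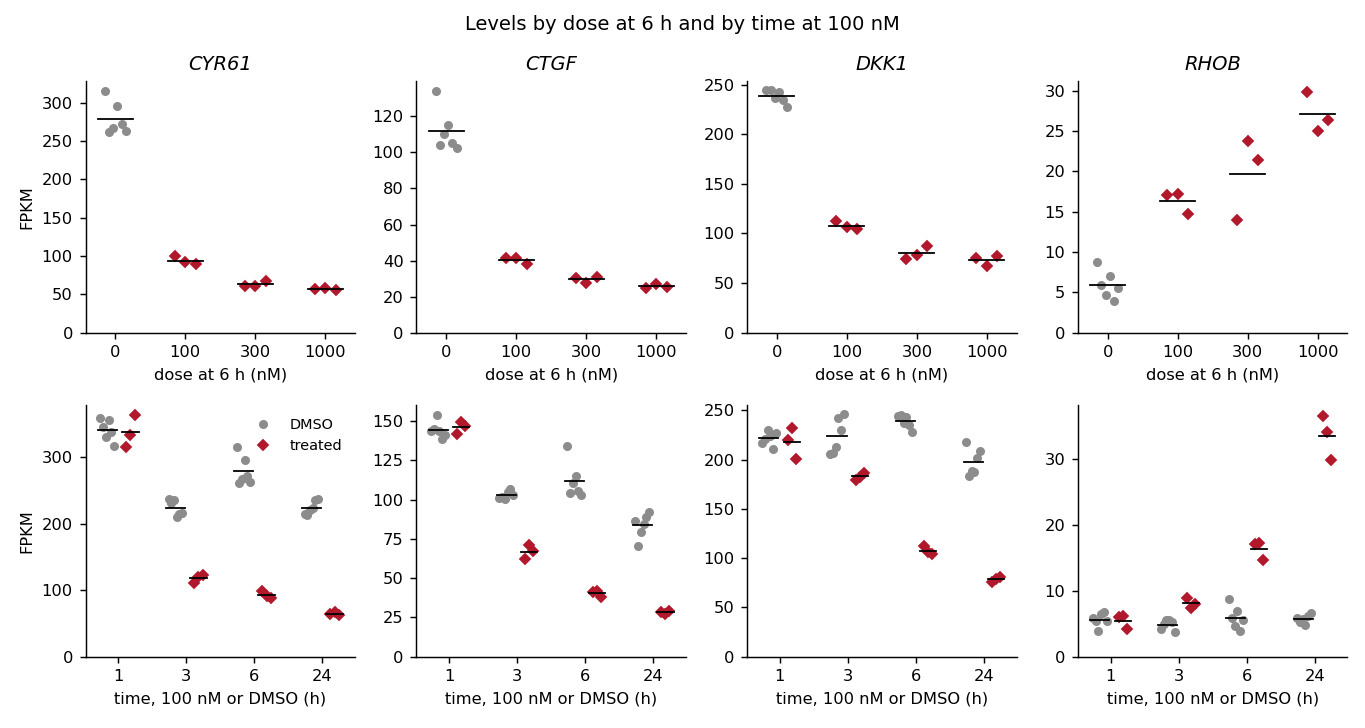
FPKM of CYR61, CTGF, DKK1 and RHOB in each library, by dose at 6 h with 0 nM for DMSO (top) and by time at 100 nM beside DMSO of the same time (bottom). Lines are group means. CYR61 at 6 h is at 279 FPKM in DMSO and at 93.3, 63.0 and 56.8 FPKM at 100, 300 and 1000 nM.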

How the data were processed

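The series holds 60 RNA-seq libraries of MDA-MB-231 cells. The submitters' processing notes name STAR 2.4.2a, the hg19 build, featureCounts 1.4.6-p2 (Subread) and DESeq2. The gene annotation used is not stated there. Values in the deposited table are log2(FPKM + 1), made by the authors, where raw FPKM had been assumed in the plan, so values were converted back. Reads were recovered from the steps between values (100.0% of 1300544 values within 0.01 of a whole read).

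Genes that reached 1 FPKM in 3 libraries or more (15866 of 38342 names) were tested as log2(FPKM + 0.5), a scale that understates folds of low genes, with limma 3.58.1 (R 4.3.3). The fit had 16 group means over 60 libraries (44 residual degrees of freedom), trend and robust settings, and Benjamini-Hochberg adjusted p under 0.05. Tables were made with Python 3.11.15, numpy 2.4.6 and pandas 2.3.3. The fit was tested on simulated data. No column of the table was left unused.

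Members and gene lists were chosen with earlier results of these data known. Genes named are the 15 largest changes past the threshold in each direction with groups that did not overlap, list members past it, the most abundant list member not past it, and genes past it in the comparisons of dose and time. Some genes and lists that meet this rule are not reported here. Genes chosen after their values were seen are marked. Library types were found in the values, not in the labels. The series' text gives harvest at 24 h only, while the sample labels used here give 1, 3, 6 and 24 h. Promoter windows are from RefSeq (GRCh38.p14), another build than that of the table. Alternatives were another pseudocount, no filter, median-of-ratios scaling, array weights, fewer libraries, library type terms, voom and each library left out.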

Additional observations from a re-analysis of the deposited data

Results flagged for a closer look

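Among the 6 DMSO libraries at 6 h, 1 library stood apart from the others in 12 of 65 genes examined. The rule flags about 1 in 20 by chance where genes are independent. These genes share the same 6 libraries, so an excess over that rate was not tested. In 9 of the 12 genes the library was replicate 5, which is of the second type and has the fewest reads. Replicate 5 was highest for FST (16.55 FPKM), F3 (179 FPKM), ARHGEF28 (5.69 FPKM), DLC1 (9.10 FPKM), FGF5 (3.53 FPKM) and WDR43 (29.9 FPKM). It was lowest for METTL7A (0.998 FPKM), RCSD1 (2.92 FPKM) and TGIF1 (4.39 FPKM). Without this library METTL7A, FGF5, WDR43 and TGIF1 did not pass, and the other 5 did. Replicate 1 was highest for WWC1 (9.82 FPKM) and KLF2 (14.96 FPKM) and lowest for TSC22D1 (27.9 FPKM).

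The response to 100 nM differed between 6 h and 3 h, by a test of the difference itself, for 9 genes, 8 of which are given here. The log2 change at 6 h minus that at 3 h was -0.86 for DKK1, -0.83 for CTGF, -0.76 for ANKRD1, -0.71 for FST, -0.66 for CYR61, -0.47 for THBS1, -0.47 for SH3RF1 and 0.56 for LIPG. Within the first library type the differences ranged from -0.81 for CTGF to 0.59 for LIPG, and all 9 passed, as they did with terms for library type.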

How the results depend on the processing

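The 137 genes changed at 100 nM became 1178 with array weights (136 shared), 535 within the first library type (135), 345 with library type terms (137), 256 with voom on recovered reads (135) and 49 on the 9 libraries alone (47). Without 1 library each the count ranged from 65 to 131. It was 75, 65 and 80 without treated replicate 1, 2 and 3 and at least 108 without a DMSO library. The 3 genes of 300 against 100 nM became 31 with array weights, 5 within the first type, 10 without a filter and 0 on the libraries compared (374 at an unadjusted p under 0.05), and 1 to 3 without 1 library each. The 3 genes of 1000 against 100 nM became 53, 10, 9 and 0 in the same order (873 unadjusted), 6 with library type terms, and 3 without each library. The 9 genes of 6 h against 3 h became 2139 with array weights, 53 within the first type, 32 with library type terms and 19 with voom. On the libraries compared alone limma called 8, of which 6 were among the 9. There ANKRD1 (adjusted p = 0.139) and LIPG (0.0503) were among those that missed the threshold. Without 1 library each the count was 4 to 10, with 4 without replicate 2 at 3 h or replicate 1 at 6 h of 100 nM. The cause was not tested, except that fewer libraries leave fewer residual degrees of freedom.

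None of the 137 genes changed direction. Calls were lost for 90 of them on the 9 libraries alone, 18 without a filter, 9 with median-of-ratios scaling, 5 with a pseudocount of 0.1, 2 within the first type, 2 with voom and 1 with array weights. 59 kept their call in every fit without 1 library. YAP1, at 0.0013 on the log2 scale, was -0.0049 with median-of-ratios scaling and -0.0254 to 0.0476 without 1 library each. No paired analysis was possible because the labels number the libraries through the whole series and the replicate numbers used here only name them. Depth limits low genes: the median SE was 0.177 at 1 to 5 FPKM, 0.142 at 5 to 20 FPKM and 0.128 above 20 FPKM.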

Other observations

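Of the 137 genes that changed, 84 were in none of the lists. The ones in this section were chosen after their values were seen, and all of them kept their call without any 1 of the 9 libraries. Among kinases, SGK1, an AGC kinase induced by steroids and serum, measured 2.13, 1.98 and 2.04 FPKM treated against 2.98 to 3.78 FPKM in DMSO and fell by 0.62 on the log2 scale (adjusted p = 3.62e-08). PLK2, a polo-like kinase, measured 44.1, 45.1 and 46.5 FPKM against 62.2 to 73.4 FPKM (-0.54, adjusted p = 2.17e-06). ABL2, a tyrosine kinase of the actin cytoskeleton, and NUAK1, an AMPK-related kinase, fell by 0.53 and 0.42. Every treated library was below every DMSO library for these 4 kinases.

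ETS1, a transcription factor, measured 18.3, 19.3 and 19.6 FPKM against 24.4 to 29.7 FPKM (-0.52, adjusted p = 9.46e-07). CRY1, a repressor of the circadian clock, fell by 0.43 (adjusted p = 9.78e-05), beside NOCT. CDC42EP3, an effector of the GTPase CDC42, measured 17.1, 16.5 and 17.0 FPKM against 20.35 to 22.2 FPKM and fell by 0.33 (adjusted p = 1.29e-06). STARD13, a GTPase-activating protein related to DLC1, fell by 0.45 (adjusted p = 0.00143). The ubiquitin ligases NEDD4L and SH3RF1 fell by 0.47 and 0.50. POLR1E, a subunit of RNA polymerase I like CD3EAP, measured 16.6, 16.1 and 15.9 FPKM against 21.6 to 23.3 FPKM (-0.46, adjusted p = 0.000261), and PNO1, a small subunit assembly factor, fell by 0.40 (adjusted p = 0.00115). PMP22, a peripheral myelin protein, was higher, at 29.9, 31.9 and 31.25 FPKM against 21.2 to 27.5 FPKM (0.36, adjusted p = 0.000394).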
